A study of Trichoderma reesei with 24 samples.

Results

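The response of the wild-type (WT) strain of *Trichoderma reesei* to glycerol in place of glucose was read from 6 RNA-Seq libraries, chosen by strain and carbon source from the 24 libraries of the series. They comprise 3 libraries of mycelium grown for 24 h on glycerol and 3 grown for 24 h on glucose. The WT strain is TU6, a uridine auxotroph derived from the strain QM9414, and both groups carry the same genotype. The other 18 libraries hold WT on cellulose and a strain in which *nsd3*, a zinc finger transcription factor gene, was deleted (Δ*nsd3*) under all conditions. Of these, the 6 Δ*nsd3* libraries of glycerol and glucose and the 3 WT libraries of 8 h on cellulose are used below for comparison. The Δ*nsd3* strain was made from TU6 with the marker gene *pyr4* and selected without uridine. The strains thus also differ in their need for uridine, which cannot be told apart here from the loss of *nsd3*. Cellulose cultures were first grown on glycerol for 24 h and then transferred. The labels do not say whether replicates were separate cultures, so p-values measure the spread between libraries, which may be technical. Bulk RNA of a mycelium does not tell fewer cells of a kind from less RNA per cell.

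*T. reesei* secretes cellulases and hemicellulases when it meets plant material. On glucose these genes are held down by carbon catabolite repression, in which the repressor Cre1 takes part, and the activator Xyr1 is needed for their induction. Glycerol is taken as a neutral carbon source that neither represses nor induces them, and it enters metabolism at the level of the triose phosphates. The comparison therefore asks how the transcriptome of the same strain differs between a neutral and a repressing carbon source.

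The deposited values are in TPM, a measure of transcript abundance that divides the reads of a gene by its length and scales them to the total of the library. Steps in the low values place the depth of the 6 libraries between 29400000 and 41400000 reads. On log2(TPM + 1), libraries of the same carbon source correlated with r between 0.988 and 0.996 across genes, which are not independent replicates, and libraries of different carbon sources with r between 0.875 and 0.909. *nsd3* itself had between 171 and 278 TPM in the 6 WT libraries and between 0.141 and 0.365 TPM in the 6 Δ*nsd3* libraries, as the labels state. The gene of elongation factor 1-alpha, *tef1a*, which growing hyphae use, had between 4542 and 6223 TPM in the WT libraries. A list of genes of conidia could not be formed by name, so the presence of conidia was not tested. The paper links TRIREDRAFT_112560 to conidiation through a homolog in another fungus. This gene was low in WT, with a mean of 2.05 TPM on glycerol and 3.56 TPM on glucose. Hydrophobin genes, whose products coat hyphae and spores, are described below.

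Of 7933 genes tested, 692 (8.72%) were upregulated on glycerol and 1065 (13.4%) were downregulated. These differentially expressed genes (DEGs) were taken at a log2 fold change (log2FC) beyond 1 or −1 and an adjusted p-value below 0.05 in limma, and 49.9% of all genes met the second condition alone. The 3 glycerol and the 3 glucose libraries did not overlap in 1755 of the 1757 DEGs, nor in 65.9% of all genes tested. Upregulated genes had a median log2FC of 1.65 and downregulated genes one of −1.43. Large changes were more often increases, with 31 genes at a log2FC of 5 or more and 6 genes at −5 or less. In the glucose libraries, 87 of the upregulated genes were under 1 TPM throughout, and 106 of the downregulated genes were under 1 TPM in all glycerol libraries. Upregulated genes held 24.1% to 27.8% of the summed TPM on glycerol and 2.84% to 3.52% on glucose, while downregulated genes held 7.32% to 9.23% on glycerol and 25.3% to 26.9% on glucose. The direction of these shares follows from how the genes were chosen, so they are a description of size only.

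The balance between both directions depended on the scaling. The median log2FC of all genes tested was −0.16, and scaling by the median of ratios moved it to 0.00 and gave 885 upregulated and 833 downregulated genes. The share of DEGs that were downregulated was 60.6% before and 48.5% after this step, with no gene turning from one direction to the other. A single gene, the hydrophobin gene *hfb2*, held 9.09% to 11.9% of the summed TPM on glycerol and 0.140% to 0.288% on glucose. When the other genes were rescaled without it, 838 were upregulated and 853 downregulated, with a median of −0.02. Genes that were not DEGs are given below as values.

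**Figure D1:**
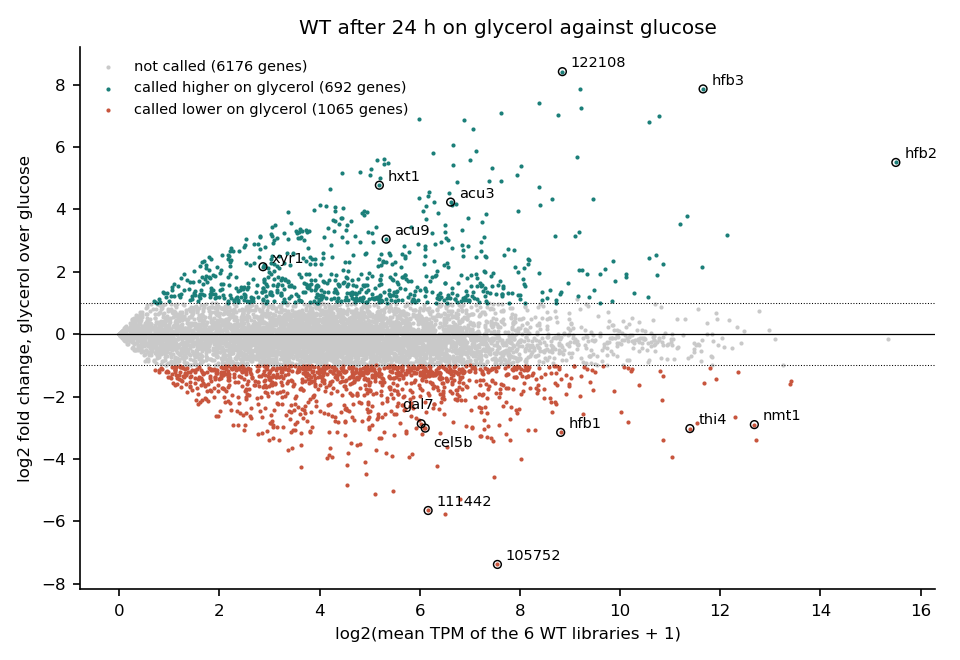
Log2FC of glycerol over glucose (vertical axis) against the mean level over the 6 WT libraries as log2(TPM + 1) (horizontal axis) for the 7933 genes tested. The 692 upregulated genes are green and the 1065 downregulated genes red, dotted lines mark a log2FC of 1 and −1, and circles mark genes described in the text, of which *hfb2* lies farthest to the right.

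Hydrophobins, small secreted proteins that assemble at surfaces and coat hyphae and spores, held the largest change among the annotated genes in each direction. *hfb2* had 95972, 100063, and 77169 TPM in the 3 glycerol libraries and 2497, 2538, and 1242 TPM in the 3 glucose libraries. It was the most abundant transcript on glycerol, and replicate 3 was the lowest library of each group. Its mean rose 43.5-fold (91068 ± 12210 against 2092 ± 737 TPM, SD, n = 3; log2FC 5.51, SE 0.22, adjusted p = 4.9e-15). *hfb3* had 7881, 6120, and 5301 TPM on glycerol and 32.4, 31.97, and 17.4 TPM on glucose. The lowest glycerol library lay 164-fold above the highest glucose library (log2FC 7.86, SE 0.23, adjusted p = 2.7e-17). *hfb1* went the other way, with 45.8, 45.8, and 270 TPM on glycerol and 1112, 681, and 541 TPM on glucose. The groups did not overlap, and replicate 3 on glycerol stood between the other glycerol libraries and the glucose libraries. The log2FC of *hfb1* was −3.15 (SE 0.56, adjusted p = 6.3e-05), and −3.99 without that replicate.

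**Figure D2:**
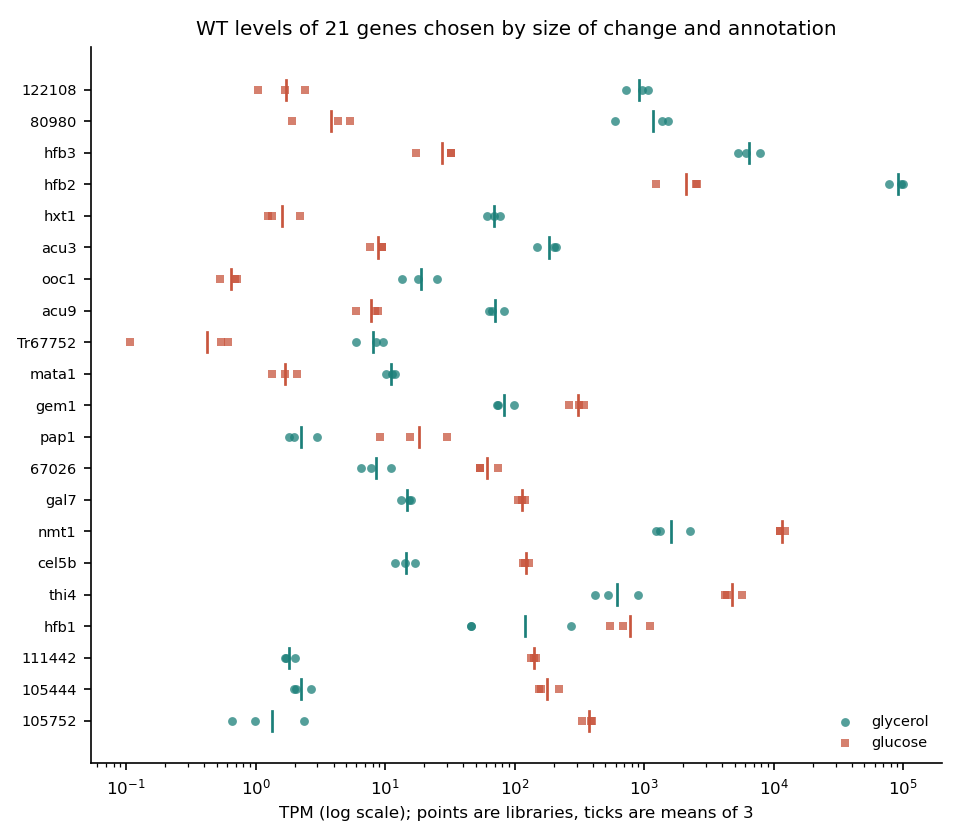
TPM on a logarithmic axis in the 3 glycerol libraries (circles) and the 3 glucose libraries (squares) of WT for 21 genes, the 8 with the largest change in each direction among annotated genes and the 3 among all genes, with identifiers shortened to their numbers. Vertical ticks are the means of 3 libraries, and the 2 groups are apart in each of the 21 genes.

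Genes of the glyoxylate cycle, which lets a cell build sugars from acetate, were upregulated. *acu3*, the gene of isocitrate lyase in *Neurospora* nomenclature, had 207, 201, and 148 TPM on glycerol and 9.47, 9.37, and 7.63 TPM on glucose. *acu9*, named after the gene of malate synthase, had 82.0, 63.6, and 66.3 TPM on glycerol and 8.77, 8.39, and 5.94 TPM on glucose. Both groups were clearly apart in both genes, with log2FC of 4.24 (SE 0.20, adjusted p = 1.1e-13) and 3.05 (SE 0.22, adjusted p = 8.8e-11). *acs1*, which carries the name of acetyl-CoA synthetase, moved in the opposite direction, from 184 ± 3.01 TPM on glucose to 68.3 ± 19.0 TPM on glycerol (log2FC −1.45, adjusted p = 1.8e-06). Of the 8 genes of the glyoxylate cycle, the citrate cycle, and acetyl-CoA supply, these were the 3 DEGs, and the median log2FC of the 8 was −0.04. Among all genes tested, 22.1% were DEGs. The subunit genes of ATP citrate lyase, *acl1* and *acl2*, and *cit1*, the gene of citrate synthase, overlapped between the groups.

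Among 4 sugar transporter genes, 2 were upregulated. *hxt1*, a hexose transporter gene by its name, had 77.6, 69.5, and 61.6 TPM on glycerol and 1.33, 1.25, and 2.22 TPM on glucose. The lowest glycerol library was 27.8-fold above the highest glucose library, and the mean rose 43.5-fold (log2FC 4.78, SE 0.21, adjusted p = 2.5e-14). The transporter gene *Tr67752* had 8.51, 9.67, and 5.95 TPM on glycerol and 0.614, 0.541, and 0.107 TPM on glucose, which stand for 390 to 605 and 5.98 to 33.1 estimated reads. It was low in both groups but did not overlap between them (log2FC 2.67, SE 0.20, adjusted p = 1.8e-10). *Tr44175* had 40.4 ± 7.33 TPM on glycerol and 21.3 ± 4.72 TPM on glucose, a log2FC of 0.90 (adjusted p = 0.0028) under the fold threshold. Rescaling by the median of ratios brought it to 1.09 and above the threshold. *lac1*, a lactose permease gene, was listed at 0 in the glycerol libraries and at 0, 0.037, and 0.041 TPM in the glucose libraries. With up to 3 reads allowed by a count of 0, and 2.01 estimated reads at most on glucose, no difference of *lac1* was detectable at this depth.

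Of 10 regulators of carbon source use and cellulase genes, 2 rose and 1 fell, against 8.72% and 13.4% of all genes tested. None of the 10 fell after rescaling by the median of ratios. *xyr1*, the activator of cellulase and xylanase genes, had 13.5, 11.4, and 8.04 TPM on glycerol and 1.98, 1.56, and 1.37 TPM on glucose. The groups were 4.07-fold apart at their closest (log2FC 2.16, SE 0.26, adjusted p = 4.0e-07). After 8 h on cellulose, which followed growth on glycerol, *xyr1* had 233 ± 23.3 TPM, so its level on glycerol was 4.71% of that. *cre1*, the repressor gene, had 150, 125, and 124 TPM on glycerol and 66.0, 61.6, and 50.4 TPM on glucose, with no overlap. It rose 2.25-fold (log2FC 1.16, SE 0.25, adjusted p = 4.6e-04), so the genes of the activator and of the repressor were both higher on the carbon source without glucose. *snf1*, named after the yeast kinase that relieves glucose repression, had 180 ± 3.27 TPM on glycerol and 364 ± 30.6 TPM on glucose. It sat at the threshold (log2FC −1.01, adjusted p = 0.018) and fell short of it at −0.82 after rescaling by the median of ratios. The *hap* genes, *creb*, *crec*, and *nsd3* were not DEGs, and *nsd3* had a log2FC of 0.31 (adjusted p = 0.56). Its glycerol and glucose libraries did not overlap. The fit rests on the spread in all groups, and *nsd3* had 102 ± 56.5 TPM in WT after 8 h on cellulose. Among other transcription factor candidates named in the study, of which 1 was not analysed here, TRIREDRAFT_58897 fell from 47.3 ± 0.912 to 13.0 ± 2.01 TPM (log2FC −1.80, adjusted p = 4.1e-08), and TRIREDRAFT_112342 overlapped between the groups.

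The cellulase genes themselves stayed close to 0 on both carbon sources. Of 17 genes of cellulases, hemicellulases, and accessory proteins, 15 had a mean under 10 TPM in both groups. None of the 17 was upregulated and 2 were downregulated, against 8.72% and 13.4% of all genes tested. The log2FC was above 0 in 13 of them, and *cel7b*, an endoglucanase gene, had the highest (0.61, adjusted p = 0.024), with overlapping groups of 2.74 ± 0.731 TPM on glycerol and 1.44 ± 0.438 TPM on glucose. *cel7a*, the gene of the main cellobiohydrolase, had 1.29, 2.15, and 20.8 TPM on glycerol and 3.96, 4.93, and 3.24 TPM on glucose. The glycerol libraries thus lay on both sides of the glucose libraries, and neither group came near the 11455 ± 2320 TPM after 8 h on cellulose. Replicate 3 on glycerol held the highest value of the 6 libraries in 10 of the 16 genes with any signal. In it *cel61b* had 6.90 TPM against 0.239 and 0.161 TPM in replicates 1 and 2, and *cip1* had 5.22 TPM against 0.501 and 0.225 TPM. *xyr1* was lowest of the glycerol libraries in this same replicate. Without replicate 3 on glycerol, 759 of all genes tested were upregulated and 1071 downregulated, and of the genes with a printed log2FC *hfb1* moved most. TRIREDRAFT_54219 was listed at 0 in all 6 libraries.

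Both DEGs among the cellulase genes were higher on glucose. *cel5b*, an endoglucanase gene, had 14.2, 12.0, and 16.9 TPM on glycerol and 120, 129, and 116 TPM on glucose. Between the nearest libraries of both groups there was a 6.88-fold gap (log2FC −3.01, SE 0.20, adjusted p = 2.3e-11). After 8 h on cellulose it had 13.4 ± 1.46 TPM, close to its level on glycerol, on which the cellulose cultures were first grown. *cel1a*, the gene of an intracellular β-glucosidase, had 1.20, 1.18, and 4.29 TPM on glycerol and 9.68, 6.34, and 5.22 TPM on glucose. The groups came close to each other through replicate 3 of both, and the log2FC was −1.42 (SE 0.26, adjusted p = 8.3e-05), or −1.84 without replicate 3 on glycerol.

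**Figure D3:**
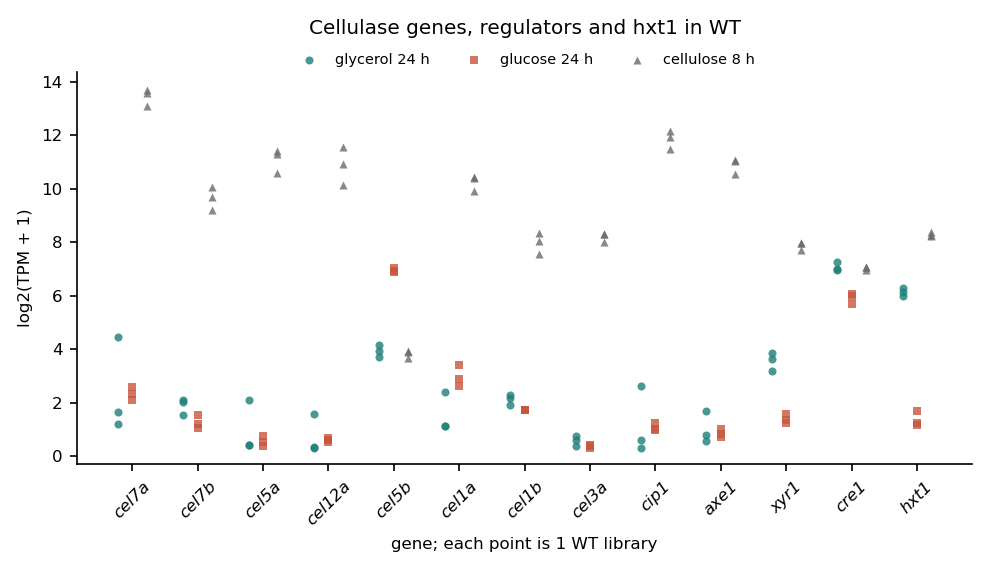
Levels as log2(TPM + 1) of 10 cellulase and accessory genes, 2 regulators, and *hxt1* in the WT libraries of glycerol (circles), glucose (squares), and 8 h on cellulose (triangles), 1 point per library. Except for *cel5b* and *cre1*, the cellulose libraries are far above both other groups, and the separate circle of *cel7a*, *cel5a*, *cel12a*, *cel1a*, *cip1*, and *axe1* is replicate 3 on glycerol.

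The thiamine (vitamin B1) synthesis gene *thi4* and the gene *nmt1* were among the most abundant transcripts that fell. *thi4*, whose product makes the thiazole part of the vitamin, had 525, 418, and 892 TPM on glycerol and 4392, 4231, and 5688 TPM on glucose. *nmt1* had 1322, 1233, and 2271 TPM on glycerol and 11263, 11091, and 12240 TPM on glucose. The name *nmt1* stands for a thiamine gene in fission yeast and for another enzyme in other yeasts, and the tables do not say which is meant. In both genes replicate 3 was the highest library of each group, and the groups were far apart (log2FC −3.02, SE 0.21, adjusted p = 6.5e-11 for *thi4*, and log2FC −2.90, SE 0.25, adjusted p = 2.1e-09 for *nmt1*).

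Of 9 genes for the use of galactose, pentoses, and polyols, 1 rose and 1 fell, near the 22.1% of all genes called in either direction. The median log2FC of the 9 was −0.47. *gal7*, the gene of galactose-1-phosphate uridylyltransferase, had 15.955, 13.2, and 15.2 TPM on glycerol and 115, 121, and 106 TPM on glucose. The other genes of the same pathway, *gal1* and *gal10*, were below the fold threshold. *gal7* was thus the gene of this group with the largest difference (log2FC −2.87, SE 0.14, adjusted p = 1.7e-13). *lad1*, the gene of L-arabinitol dehydrogenase, had 24.7, 22.2, and 37.6 TPM on glycerol and 10.1, 9.45, and 8.74 TPM on glucose (log2FC 1.45, SE 0.17, adjusted p = 2.9e-07). *gld1*, for which the tables give no product, was not a DEG, with 168 ± 9.60 TPM on glycerol and 263 ± 47.1 TPM on glucose (log2FC −0.63, adjusted p = 0.011).

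Glycolysis and energy genes differed by less than the fold threshold. *eno1*, the enolase gene, had 2754 ± 141 TPM on glycerol and 4559 ± 298 TPM on glucose (log2FC −0.73, adjusted p = 1.3e-04). For *pgk1*, the phosphoglycerate kinase gene, the log2FC was −0.50 (adjusted p = 0.053). Of the 5 genes of glycolysis and pentose phosphate entry none was a DEG, but 3 passed the adjusted p-value, against 49.9% of all genes tested. The hexokinase gene *hxk1* was one of these 3 and had the opposite sign to *eno1* and *pgk1*. It had 279 ± 34.8 TPM on glycerol and 177 ± 20.1 TPM on glucose (log2FC 0.66, adjusted p = 1.5e-04). The ATP synthase subunit genes *atp1* and *atp2* had log2FC of −0.83 and −0.81 (adjusted p = 2.7e-05 and 1.0e-05), without overlap between the groups. *ugp1*, whose product makes UDP-glucose, had a log2FC of −0.82 (adjusted p = 0.0015), and *gph1*, the glycogen phosphorylase gene, one of −0.38 (adjusted p = 0.040). The negative values of these genes stayed negative after rescaling by the median of ratios.

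None of 39 ribosomal protein genes was a DEG and 4 had an adjusted p-value under 0.05, against 22.1% and 49.9% of all genes tested. The median log2FC of the 39 was −0.20, close to the −0.16 of all genes. Their signs followed the scaling, with 35 of 39 negative in the deposited TPM and 21 of 39 after rescaling by the median of ratios. The 3 histone genes had a median of −0.58, with 3503 ± 229 against 4452 ± 177 TPM for *hh3*. *hh2b* had 2283 ± 102 TPM on glycerol and 3405 ± 186 TPM on glucose (log2FC −0.58, adjusted p = 5.9e-04). Of the common reference genes, *tef1a*, *tef2*, and *sar1* had log2FC of −0.28, −0.49, and −0.42, and none was a DEG. The 8 genes of the proteasome and ubiquitin held no DEG either, 3 passed the adjusted p-value, and the signs differed, with a log2FC of −0.43 for *ubi4* and of 0.79 for *skp1* (adjusted p = 2.2e-04).

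Within the secretory pathway, 2 of 12 genes rose and none fell, against 8.72% and 13.4% of all genes tested. After rescaling by the median of ratios 3 of the 12 rose. *bip1* had 428 ± 53.4 TPM on glycerol and 230 ± 20.2 TPM on glucose, without overlap, and was under the fold threshold in the deposited TPM. *pdi1*, the gene of protein disulfide isomerase, which forms disulfide bonds in the endoplasmic reticulum, had 489, 442, and 296 TPM on glycerol and 135, 128, and 127 TPM on glucose. The glucose libraries were nearly equal while the glycerol libraries spread, and the mean rose 3.15-fold (log2FC 1.62, SE 0.21, adjusted p = 8.6e-07). *ire1*, whose product senses unfolded proteins there, had 160, 165, and 153 TPM on glycerol and 77.0, 71.9, and 65.4 TPM on glucose (log2FC 1.15, SE 0.16, adjusted p = 3.6e-06). The small GTPase gene *ypt1* differed by a log2FC of 0.21 (adjusted p = 0.16).

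Genes of chitinases and N-acetylglucosaminidases, whose products cut the chitin of cell walls, gave 2 upregulated and 1 downregulated gene among 15 tested, near the 22.1% of all genes called in either direction, and 4 more members were too low to be tested. *chi18-rel1* rose from 0.863 ± 0.261 to 6.37 ± 2.62 TPM (log2FC 1.92, adjusted p = 1.2e-06) and *chi18-13* from 2.93 ± 0.136 to 7.33 ± 0.958 TPM (log2FC 1.08, adjusted p = 2.5e-05). *chi18-rel2* fell to 26.6 ± 3.50 from 55.0 ± 6.99 TPM (log2FC −1.02, adjusted p = 1.2e-05), and was under the fold threshold at −0.84 after rescaling by the median of ratios. The abundant *nag2*, an N-acetylglucosaminidase gene, had 520 ± 67.8 TPM on glycerol and 306 ± 22.3 TPM on glucose and was not a DEG (log2FC 0.76, adjusted p = 0.11). Its groups did not overlap, and in WT after 8 h on cellulose, part of the same fit, it had 134 ± 83.8 TPM.

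In signal transduction, 3 of 16 genes fell and 1 rose, shares near the 13.4% and 8.72% of all genes. *gna2*, a G protein alpha subunit gene, had 30.5, 34.4, and 38.9 TPM on glycerol and 111, 119, and 119 TPM on glucose (log2FC −1.73, SE 0.32, adjusted p = 1.1e-04). *rgs1*, named after regulators that switch such subunits off, fell from 14.2 ± 1.24 to 4.10 ± 0.500 TPM (log2FC −1.57, adjusted p = 6.1e-05). The MAP kinase gene *tmk1* fell as well, from 151 ± 16.01 to 64.0 ± 9.86 TPM (log2FC −1.23, adjusted p = 2.2e-06), and *nik1*, a histidine kinase gene, rose from 26.6 ± 1.18 to 75.1 ± 12.4 TPM (log2FC 1.45, adjusted p = 0.0057). *tmk3*, another MAP kinase gene, stayed below the fold threshold (log2FC 0.79, adjusted p = 6.4e-05).

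Of 4 genes of the blue light response, 2 rose, against 8.72% of all genes tested. *blr2*, which encodes a part of the light receptor complex, had 80.6, 65.9, and 53.7 TPM on glycerol and 18.9, 19.8, and 17.6 TPM on glucose (log2FC 1.76, SE 0.30, adjusted p = 2.8e-05). The photolyase gene *phr1*, whose product repairs DNA with the energy of light, had 84.7, 105, and 57.0 TPM on glycerol and 26.1, 26.5, and 19.6 TPM on glucose (log2FC 1.70, SE 0.27, adjusted p = 1.7e-05). *blr1*, the partner of *blr2*, and *env1* overlapped between the groups.

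Of 2 siderophore transporter genes, whose products take up iron bound to small molecules, 1 fell, against 13.4% of all genes tested. TRIREDRAFT_67026 had 6.51, 7.81, and 11.1 TPM on glycerol and 74.2, 53.6, and 54.4 TPM on glucose, and its groups did not come closer than 4.85-fold (log2FC −2.72, SE 0.26, adjusted p = 1.1e-08). TRIREDRAFT_78465 had 14.1 ± 0.957 TPM on glycerol and 23.8 ± 4.99 TPM on glucose (log2FC −0.70, adjusted p = 0.022) and was not a DEG.

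**Figure D4:**
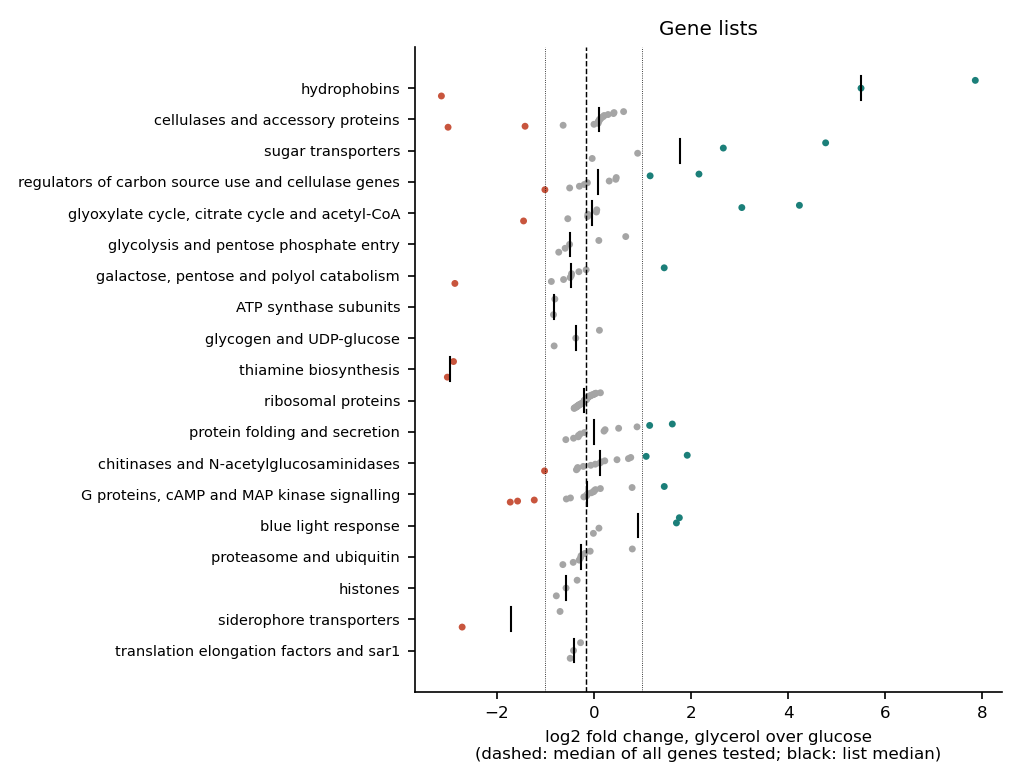
Log2FC of glycerol over glucose (horizontal axis) for the tested members of 19 gene lists (vertical axis), 1 point per gene, green where upregulated, red where downregulated, and grey where not a DEG. Black ticks are list medians and the dashed line is the median of all genes, −0.16, near which the 39 ribosomal protein genes sit.

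A further 5 genes had a symbol but belonged to no list. *ooc1* rose from 0.645 ± 0.103 to 18.9 ± 5.73 TPM (log2FC 3.55, adjusted p = 3.0e-09) and *mata1* from 1.69 ± 0.370 to 11.1 ± 0.840 TPM (log2FC 2.18, adjusted p = 4.2e-07). *pap1* fell from 9.11, 15.6, and 30.2 TPM on glucose to 2.98, 1.98, and 1.81 TPM on glycerol, with a wide spread between the glucose libraries (log2FC −2.43, adjusted p = 1.7e-07). *gem1* fell from 307 ± 42.6 to 82.2 ± 14.9 TPM (log2FC −1.89, adjusted p = 9.7e-09). *hex1*, the name of the Woronin body protein gene in *Neurospora*, whose product plugs damaged hyphae, was the third most abundant transcript on glycerol, with 8763 ± 1731 against 5181 ± 378 TPM on glucose (log2FC 0.74, adjusted p = 2.3e-04).

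The genes with the largest changes of all were mostly unannotated. TRIREDRAFT_122108 had 1068, 966, and 720 TPM on glycerol and 1.68, 2.40, and 1.05 TPM on glucose, the largest increase (log2FC 8.42, SE 0.20, adjusted p = 1.2e-18). TRIREDRAFT_80980 followed with 1529, 1363, and 600 TPM on glycerol and 4.30, 5.33, and 1.90 TPM on glucose (log2FC 7.87, SE 0.28, adjusted p = 9.3e-16). As for *hfb2* and *hfb3*, replicate 3 was the lowest library of both groups in these 2 genes. TRIREDRAFT_105752 had 0.985, 0.662, and 2.38 TPM on glycerol and 331, 396, and 388 TPM on glucose, the largest decrease (log2FC −7.38, SE 0.27, adjusted p = 2.0e-15). TRIREDRAFT_105444 fell from 177 ± 35.6 to 2.25 ± 0.392 TPM (log2FC −5.77, adjusted p = 5.5e-14) and TRIREDRAFT_111442 from 140 ± 6.69 to 1.81 ± 0.172 TPM (log2FC −5.65, adjusted p = 3.2e-13). The most abundant transcript on glucose, TRIREDRAFT_110879, was not among the changed genes, with 40046 ± 7321 TPM on glycerol and 43806 ± 2083 TPM on glucose. The next 2 on glucose, TRIREDRAFT_121605 and TRIREDRAFT_121534, had 16115 ± 2022 and 16097 ± 762 TPM there and fell to 5454 ± 1616 and 5819 ± 1251 TPM on glycerol (log2FC −1.59 and −1.49, adjusted p = 2.7e-07 and 0.0040).

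Some DEGs were neighbours in the order of the RefSeq gene table. There were 22 runs of at least 4 adjacent genes called in the same direction, 5 upregulated and 17 downregulated, with 94 genes in all, given here as a description without a test. The run with the highest single increase held 4 genes, among them TRIREDRAFT_59151, which had 338 ± 44.2 TPM on glycerol and 8.74 ± 5.40 TPM on glucose (log2FC 5.32). In another run of 4, TRIREDRAFT_108143, TRIREDRAFT_108144, and TRIREDRAFT_108145 went from 10.5, 1.15, and 0.383 TPM on glucose to 199, 20.2, and 34.7 TPM on glycerol. *inda1*, an amino acid permease gene, closed another upregulated run and rose from 33.3 ± 2.68 to 124 ± 17.4 TPM (log2FC 1.86). On the other side, the longest run held 6 downregulated genes around TRIREDRAFT_123468 (65.6 ± 26.5 TPM on glucose, 0.911 ± 0.656 TPM on glycerol, log2FC −5.11). The run of 5 around TRIREDRAFT_76763 (log2FC −4.56) had means between 11.1 and 491 TPM on glucose and between 2.85 and 150 TPM on glycerol. Both TRIREDRAFT_67026 and *tmk1* were members of downregulated runs, the latter together with the abundant TRIREDRAFT_121534.

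The same 2 carbon sources were also compared in the Δ*nsd3* strain, in libraries that share no sample with the WT comparison and of which 1 was estimated at 239000000 reads. There 1408 genes (17.7%) were upregulated on glycerol and 570 (7.19%) downregulated, and the median log2FC of all genes was 0.28, on the other side of 0 from the −0.16 of WT. Of the genes upregulated in WT, 551 were also upregulated in Δ*nsd3*, which is 79.6% of the WT genes and 39.1% of the Δ*nsd3* genes. Of those downregulated in WT, 433 were also downregulated in Δ*nsd3*, or 40.7% of the WT genes and 76.0% of the Δ*nsd3* genes. Opposite calls were made for 17 genes, 3 of them upregulated in WT. A difference between the strains in the response to the carbon source passed an adjusted p-value of 0.05 in 2708 genes (34.1% of all genes tested), and in 1761 genes (22.2%) after rescaling by the median of ratios.

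The 21 genes taken here are the 8 annotated genes with the largest change in each direction in WT and the 3 largest of any kind, some of which are in both sets. In the deposited TPM, 13 of them differed between the strains in this test and 8 did not, and after rescaling by the median of ratios 11 differed. The WT log2FC that chose these genes is part of the difference tested, so the counts are a description. *hfb2* had a log2FC of 5.51 in WT and 5.52 in Δ*nsd3* (difference −0.01, SE 0.31, adjusted p = 0.98), and the difference was 0.53 after rescaling by the median of ratios (adjusted p = 0.32). For TRIREDRAFT_105752, the log2FC was −7.38 in WT and −7.07 in Δ*nsd3* (adjusted p of the difference 0.56). *hxt1* differed most among the upregulated ones of these genes, with a log2FC of 4.78 in WT and 1.13 in Δ*nsd3* (difference 3.64, adjusted p = 4.3e-08). The glucose level of *hxt1* was 1.60 ± 0.537 TPM in WT and 19.5 ± 3.12 TPM in Δ*nsd3*, and the glycerol levels were 69.6 ± 8.00 and 44.0 ± 7.61 TPM. All 21 genes had the same sign in Δ*nsd3*, as did 98.1% of all genes upregulated and 88.1% of all genes downregulated in WT.

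**Figure D5:**
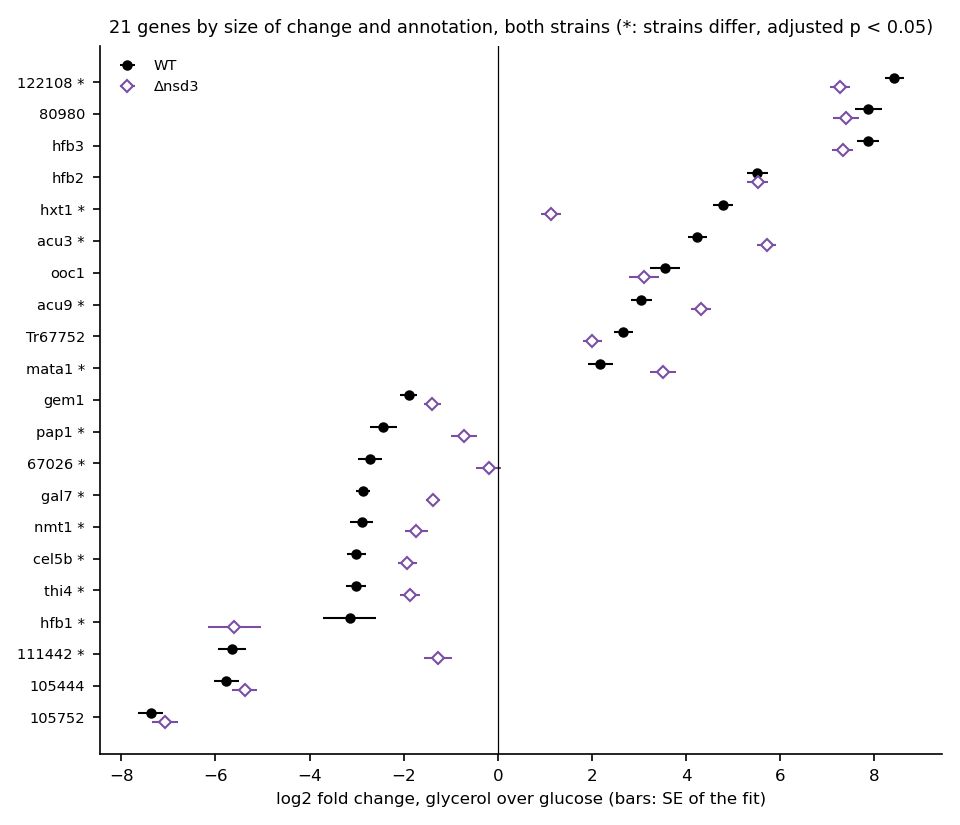
Log2FC of glycerol over glucose (horizontal axis) in WT (filled circles) and in Δ*nsd3* (open diamonds) for the same 21 genes, with the SE of the fit as bars and identifiers shortened to their numbers. Asterisks mark the 13 genes whose response differed between the strains, with the widest gaps for *hxt1* and TRIREDRAFT_111442.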

How the data were processed

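RNA of mycelium was sequenced in 24 libraries, 3 for each strain and condition, from a stranded mRNA kit. The authors trimmed the reads with Trim Galore 0.6.7, mapped them with HISAT2 2.2.1, counted them with featureCounts, and compared groups with DESeq2. They deposited TPM values for 8755 genes, and since these are not counts, DESeq2 was not repeated. The strand setting of the counting is not given in the sources used here. TPM sums to between 840496 and 886039 in the 6 libraries described, and the rest is not analysed here. Depth was estimated from the step that 1 read is worth, using RefSeq gene lengths (assembly v2.0), and 76.1% to 80.8% of low values were whole reads to within 0.1, where chance gives 20%. In a Δ*nsd3* glycerol library the estimate was 239000000 reads. Ranges of estimated reads of a gene are the lowest and highest of the 3 libraries of a group. The 3 reads allowed by a count of 0 cover counting error only.

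A gene was tested, on log2(TPM + 1), if 3 or more of the 24 libraries reached 1 TPM for it, and this scale understates changes of low genes. All 24 libraries entered the same limma model, which fitted each group mean (eBayes with an intensity trend, so an SE rests on the spread in all groups), and two-sided p-values were corrected over 7933 genes after Benjamini and Hochberg. With 3 against 3 libraries an exact permutation test cannot go below 0.1 and was not used. The model and the depth estimate were tested on simulated data.

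Members and gene lists were chosen with earlier results of these data known. The RefSeq table names 225 of 8750 matched genes and gives no products, so lists were formed by symbol after the table had been seen, and lists that need products could not be made. *gpd1*, an ambiguous symbol, is in no list. Named genes are the 8 annotated genes with the largest change in each direction among DEGs without overlap, the 3 largest whatever the annotation, the 3 most changed DEGs and the 2 highest genes of a list, genes that the paper gives with an identifier, and the 3 most abundant genes of each group, some left out for length. *inda1*, *tmk1*, *cip1*, *cel61b*, *cel7a*, *cel7b*, *hxk1*, *skp1*, *bip1*, and the run members fall outside and were picked once their values were known. Genes named without values (*cit1*, *gal1*, *gal10*, *blr1*, *creb*, *crec*, and the *hap* genes) fall outside too. So do *cel5a*, *cel12a*, and *axe1*, which are named with the plot of cellulase genes. The tools were limma 3.58.1 in R 4.3.3 and, in Python 3.11.15, pandas 2.3.3, numpy 2.4.6, and for plots matplotlib 3.10.9. Alternatives were other pseudocounts (0.1, 5), filters, scalings, fits, and each library left out.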

Additional observations from a re-analysis of the deposited data

Results flagged for a closer look

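Of 21 genes, 13 responded differently to the carbon source in Δ*nsd3* (limma interaction, adjusted p under 0.05). The same test passed in 34.1% of all genes tested, and in 22.2% after rescaling by the median of ratios. The 21 are the 8 annotated genes with the largest change in each direction in WT and the 3 largest of any kind. That WT change is part of the difference tested, so the count is a description. Differences are given as the log2FC in WT minus that in Δ*nsd3*. The largest of these differences were −4.38 for TRIREDRAFT_111442, 3.64 for *hxt1*, −2.52 for TRIREDRAFT_67026, and 2.46 for *hfb1*. TRIREDRAFT_111442 had 17.6 ± 8.52 TPM on glycerol and 41.6 ± 10.3 TPM on glucose in Δ*nsd3*, against 1.81 ± 0.172 and 140 ± 6.69 TPM in WT. TRIREDRAFT_67026 had 47.7 ± 3.83 and 54.8 ± 5.30 TPM in Δ*nsd3*, so the fall seen in WT on glycerol was not called there. *hfb1* fell further in Δ*nsd3*, from 2083 ± 480 to 42.7 ± 15.3 TPM.

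Differences of −1.47 for *acu3*, −1.27 for *acu9*, and −1.33 for *mata1* came from a larger increase in Δ*nsd3*, and that of 1.15 for TRIREDRAFT_122108 from a smaller one. Smaller decreases in Δ*nsd3* gave −1.71 for *pap1*, −1.49 for *gal7*, −1.16 for *nmt1*, −1.16 for *thi4*, and −1.09 for *cel5b*. The medians of all genes lay 0.44 apart between the strains. After rescaling by the median of ratios, 9 of the 13 differences still passed, and those of *mata1*, *thi4*, *nmt1*, and *cel5b* did not (adjusted p = 0.062, 0.20, 0.22, and 0.19), while those of *hfb3* (1.07, adjusted p = 0.030) and *Tr67752* (1.09, adjusted p = 0.0022) were gained.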

How the results depend on the processing

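A set of 16 other settings and 2 more chosen after seeing the data (voom on estimated reads, and TPM rescaled without *hfb2*) left between 486 and 1011 genes upregulated and between 695 and 1301 downregulated. In none of them did a gene turn from one direction to the other. With a pseudocount of 5, 695 genes were downregulated in place of 1065. With each library left out in turn, 672 to 759 genes were upregulated and 1022 to 1125 downregulated. Quantile normalization gave 797 and 819, voom 1011 and 1188.

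With 3 libraries per group, the values could not settle whether replicate numbers pair the libraries. Deviations from the group means correlated with r of 0.080, 0.018, and 0.070 between libraries of the same number, and 2 of 3 glycerol and 1 of 3 glucose libraries correlated best with their own number. A fit of the 6 libraries called 696 genes upregulated and 1065 downregulated, both with and without the replicate number as a block.

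Of 69 genes with a printed log2FC, a pseudocount of 5 took *cel1a*, *snf1*, *chi18-rel1*, *chi18-13*, and *chi18-rel2* below the threshold. *snf1* and *chi18-rel2* were also lost under the other scalings and under voom, *snf1* without replicate 2 on glucose (log2FC −0.94, adjusted p = 0.056), *chi18-13* without replicate 1 on glycerol (0.99), and *chi18-rel2* without replicate 3 on glucose (−0.92), replicate 2 on glycerol (−0.99), or replicate 3 on glycerol (−0.95). *cel7b* was called upregulated under voom. *Tr44175* was gained without replicate 2 on glucose (1.05) or on glycerol (1.06). The log2FC of *hfb1* lay between −3.99 and −2.72 with 1 library left out, and that of *cel1a* between −1.84 and −1.20. The cause of these changes was not tested.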
